A study of Mus musculus with 3 samples.

Results

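The 92 External RNA Controls Consortium (ERCC) transcripts were followed in single mouse embryonic stem (ES) cells with and without acute loss of cohesin. They were taken as every row of the count tables whose identifier begins with ERCC-, which gave 92 of 52739 rows, beside 52636 mouse genes and 11 transgene sequences. The cells were JM8.N4 ES cells of the C57BL/6N strain, in which the cohesin subunit RAD21 carried an auxin-induced degron (AID), and both conditions shared this background and the same medium with serum, leukemia inhibitory factor and the 2i inhibitors on gelatin without feeders. Control plates held untreated cells, and auxin plates held cells given 500 µM of the auxin analog indole-3-acetic acid for 6 h. Smart-Single-Cell RNA Barcoding (Smart-SCRB) was run on 3 replicates with 4, 8 and 4 plates of 96 wells, 1536 wells in all, and each plate was pooled into 1 library of 1 condition. The analysis used the 1335 wells with more than 2600 detected genes, called kept wells here, with 337, 661 and 337 in replicates 1, 2 and 3.

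ERCC transcripts are synthetic polyadenylated RNAs that no mouse cell makes. They were part of the lysis buffer pipetted into each well, so every well was meant to receive the same mixture, and they passed through reverse transcription, amplification and sequencing with the RNA of the cell. The mouse UMIs of a well divided by its ERCC UMIs therefore cancel losses that both share, and the quotient is used as a relative measure of mRNA content per cell. A UMI (unique molecular identifier) is a random tag on the reverse transcription primer, so that copies of 1 tagged cDNA count once. In growing cells mRNA content is known to rise with cell volume and through the cell cycle, which gives the measure a known biological direction. Because all values are ratios to the spike-in, fewer RNA molecules per cell and a poorer capture of cellular RNA than of spike-in RNA cannot be told apart.

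The labelled cell type was compared with marker genes. The 10 ES cell markers summed to a mean of 1103, 571.1 and 667.4 UMIs per kept well in replicates 1, 2 and 3, led by Dppa5a, a germ cell and pluripotency gene, with 850.3, 425.8 and 526.3 UMIs. Sox2, a core pluripotency factor, had a mean of 13.8 UMIs in replicate 1 and was listed at 0 in every kept well of replicates 2 and 3, and Pou5f1, another core factor, had 27.6, 1.07 and 0.783 UMIs. Of the other listed markers, Nanog had 58.6, 7.32 and 38.3 UMIs, Tfcp2l1 26.9, 0.496 and 24.7, and Esrrb 7.09, 1.83 and 7.55. Tdgf1 and Utf1 went the other way and were highest in replicate 2, with 86.2 and 26.8 UMIs there. The highest sum of another list in any replicate was 3.11 UMIs, for the 6 fibroblast or feeder genes in replicate 2. In that replicate Dcn of this list was detected in 42.5% of kept wells and the neural gene Pax6 in 40.5%, at means of 2.51 and 2.80 UMIs. Rad21 mRNA, which the degron does not target, had 0.427, 0.949 and 1.83 UMIs per 1000 ERCC UMIs in control wells and 0.468, 1.12 and 2.18 in auxin wells, so the RNA does not check the loss of the protein. On 2 plates of replicate 3, control plate 2 and auxin plate 2, the deposited annotation and the study's source values named opposite conditions. Their 168 kept wells were left out of the comparisons of conditions and of the tests between phases, which used 1167 wells, and stayed in the descriptions of plates, transcripts, wells and spread and in gene levels by phase.

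The mixture was seen through a small number of abundant transcripts. ERCC-00074 held 23.1%, 22.7% and 19.2% of the ERCC UMIs in kept wells of replicates 1, 2 and 3, with a mean of 1145, 1077 and 341.7 UMIs per well. ERCC-00002 had 896.0, 802.6 and 346.7 UMIs per well and ERCC-00130 had 824.3, 832.0 and 343.2, so the order of these 3 as a mean over replicates was that of replicate 1 and not of replicates 2 and 3. These 3 gave 57.6% of ERCC UMIs as a mean over replicates. ERCC-00096 had 668.2, 475.9 and 197.3 UMIs per well, ERCC-00004 had 439.4, 551.7 and 178.4, and together with the first 3 they reached 79.3%. ERCC-00096 stood below ERCC-00004 in replicate 2. The rest of the 10 most abundant were ERCC-00046, ERCC-00171, ERCC-00136, ERCC-00113 and ERCC-00003, with means over replicates from 193.0 down to 36.0 UMIs per well. All 10 together made up 93.4% of ERCC UMIs, and 20 transcripts made up 98.6%.

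At the other end, 57 of the 92 transcripts had a mean below 1 UMI per kept well and held 0.275% of ERCC UMIs together. The limit of 1 UMI fell between transcripts with means of 1.20 and 0.998, and the lowest mean was 0.00149 UMIs, 5.76 log10 units below ERCC-00074. Every one of the 92 had a UMI in some kept well. By replicate 91, 92 and 78 were detected at all, and 22, 21 and 21 were present in at least 50% of kept wells. In every single kept well of their replicate stood 9, 4 and 6 transcripts. Replicate 3, with the fewest detected, also had the lowest median of ERCC UMIs per kept well, 1820 against 4843 in replicate 1 and 4918 in replicate 2.

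The composition of the spike-in was alike between replicates. Over the 35 transcripts with a mean of at least 1 UMI, the log2 shares of ERCC UMIs had a Pearson correlation of 0.992 between replicates 1 and 2, 0.990 between 1 and 3, and 0.997 between 2 and 3. These correlations are across transcripts of 1 mixture, which are not independent replicates. Shares were within 1.5-fold of each other for 35 of 35 transcripts between replicates 2 and 3. Between replicates 1 and 2 this held for 31 of 35, and between 1 and 3 for 29 of 35. The widest departures were ERCC-00160, at 0.513 times its replicate 1 share in replicate 2 and 0.464 times in replicate 3, and ERCC-00019, at 1.83 times in replicate 3.

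Most rare spike-in transcripts were counted at several UMIs in the wells that held them. In a well that receives few copies of a transcript, counts of independent molecules would follow a Poisson distribution, and nearly every well with the transcript would show 1 UMI. Transcripts detected in 1% to 10% of kept wells were taken, outside row D and without wells of high ERCC, both described below. In replicate 1 these were 32 transcripts with 350 positive wells, of which 32.0% held exactly 1 UMI, against 96.9% under Poisson counting at the same detection. The median positive well held 5 UMIs, with quartiles of 1 and 9. In replicate 2, 26 transcripts gave 589 positive wells, with 32.6% at 1 UMI and a median of 6 UMIs. In replicate 3, 22 transcripts gave 285 positive wells, with 29.1% at 1 UMI and a median of 4. Transcripts differed in this. The mean per positive well had a median of 5.31, 6.99 and 4.40 UMIs over transcripts in replicates 1, 2 and 3, and it was under 1.5 for 6 of 32, 4 of 26 and 5 of 22 of them. ERCC-00138 was among these in 3 of 3 replicates, with 1 UMI in 6 of 6, 35 of 38 and 10 of 10 positive wells, and so was ERCC-00077. Summed over transcripts, beyond the peak at 1 UMI the positive wells spread over a broad shoulder, which reached to higher counts in replicates 1 and 2 than in replicate 3, the replicate with the fewest UMIs per well.

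**Figure D1:**
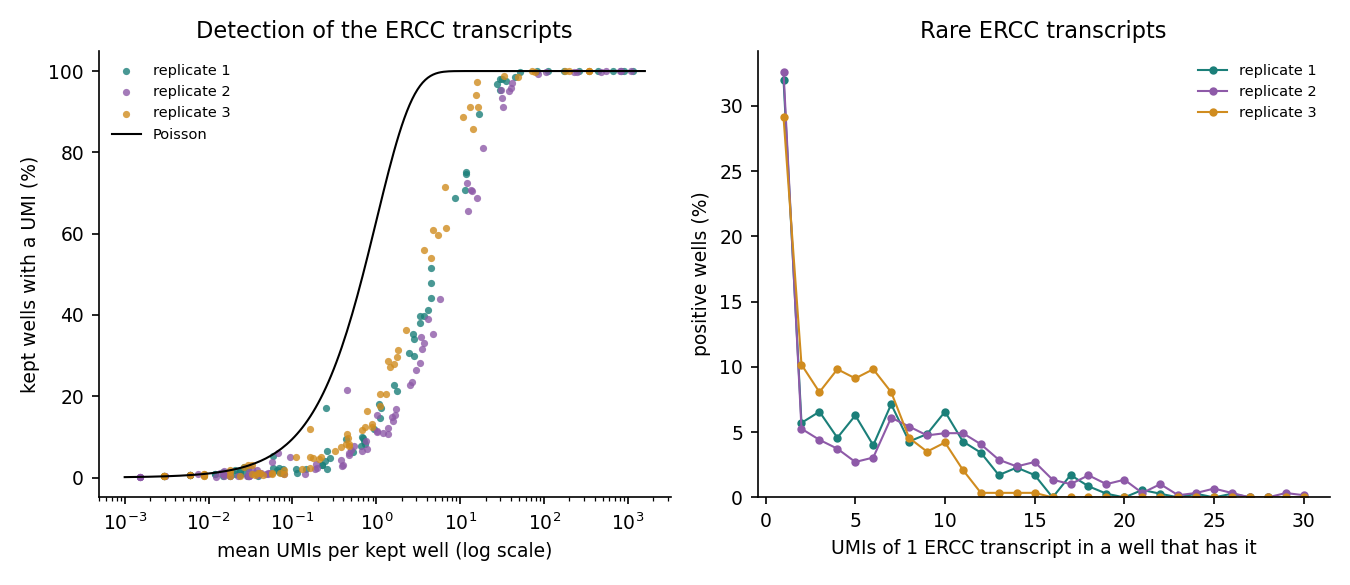
Left, the share of kept wells with a UMI (%) against the mean UMIs per kept well (log scale) for each ERCC transcript, coloured by replicate, with the curve that Poisson counting gives. Right, the distribution of UMI counts in positive wells for transcripts detected in 1% to 10% of wells, as a percent of positive wells. Transcripts of intermediate abundance lie below and to the right of the curve, and the positive wells of rare transcripts peak at 1 UMI and then spread over a broad shoulder with medians of 5, 6 and 4 UMIs.

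The same gap appeared in detection when transcripts were taken by their mean, a set that shares many members with the rare transcripts. Where positive wells hold several UMIs, detection falls below Poisson at the same mean, so this is the same observation and not further support. All kept wells were used here, including row D and the wells of high ERCC. Of the transcripts with a mean of 0.1 to 5 UMIs per kept well, all 34 in replicate 1, all 34 in replicate 2 and all 32 in replicate 3 were detected in fewer wells than their mean allowed under Poisson counting, by a median of 45.6, 52.7 and 37.4 percentage points. If the share of wells at 0 is used to estimate how many molecules a well received, the rare transcripts had a median of 5.26, 6.71 and 4.32 UMIs per molecule so estimated. The quartiles over transcripts were wide, 2.36 and 7.28 in replicate 1. Mouse genes detected in the same share of wells showed 1 UMI in 54.8%, 66.7% and 63.4% of positive wells, although these genes may also vary between cells. Poisson values for UMI counts thus cover the counting of tags only, and whether 1 molecule could receive several tags was not tested.

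The total of ERCC UMIs per well was checked next, since it divides every content value. Over kept wells the coefficient of variation (CV, the standard deviation as a percent of the mean) of ERCC UMIs was 21.2%, 50.2% and 24.6% as a mean over the plates of replicates 1, 2 and 3. The single plates ran from 18.1% to 131.4%. Poisson counting of such totals would give 1.26% to 2.46%. The wide values of replicates 2 and 3 moved with 1 row of wells and a few single wells, as shown by the values of ERCC UMIs by plate.

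**Figure D2:**
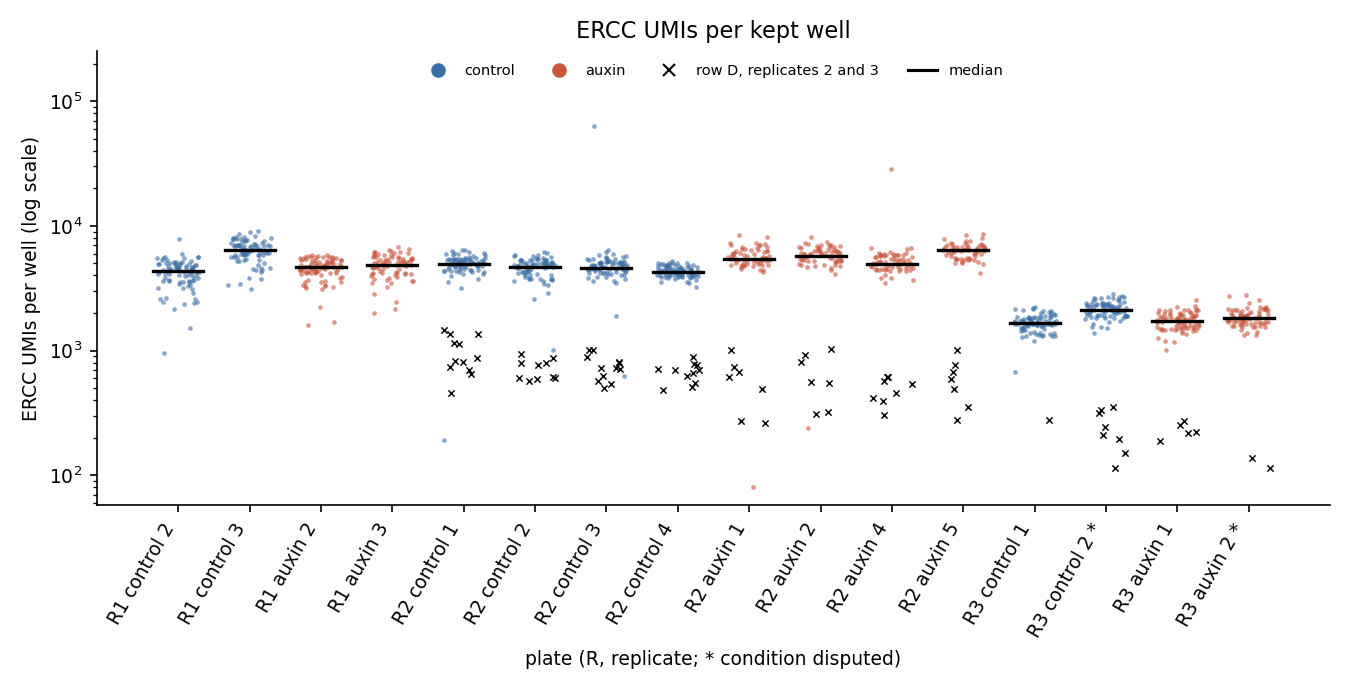
ERCC UMIs in each kept well (log scale) on the 16 plates, with control wells in blue, auxin wells in red, row D of replicates 2 and 3 as black crosses and the plate median as a line. Plates marked with an asterisk have a disputed condition. Row D lies below nearly all other wells on the 12 plates of replicates 2 and 3, a few wells of other rows lie as low, and 1 well of control plate 3 and 1 of auxin plate 4 in replicate 2 stand far above the rest.

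Row D was low in spike-in on all 12 plates of replicates 2 and 3. Medians of row D over its kept wells ran from 126.5 to 851.5 ERCC UMIs on these plates, against medians of 1660 to 6449.5 in their other rows, and these medians did not overlap. A plate kept 1 to 12 row D wells. The mean log2 difference was -3.06 ± 0.41 (SD, n = 12 plates), 0.120 times the level elsewhere (exact two-sided sign-flip permutation test over plates, p = 0.000488, the smallest 12 plates allow, adjusted over 8 rows p = 0.0039). On the 4 plates of replicate 1 the difference was 0.077 ± 0.054 and none of the 4 was lower (exact permutation p = 0.125, the smallest 4 plates allow). The mouse UMIs of row D were low too, by 2.60 ± 0.44 on the log2 scale (exact permutation adjusted p = 0.0039), and lower on 12 of 12 plates. The fall was larger for ERCC than for mouse UMIs, so mouse UMIs per ERCC UMI stood 1.48 times as high in row D, a log2 difference of 0.57 ± 0.25 that was positive on 12 of 12 plates (exact permutation adjusted p = 0.0039). All 12 plates carry barcode set Q7, and the replicate 1 plates carry sets Q6 and Q8, so the well barcodes and the replicates cannot be told apart here. Each barcode set was used on several libraries, so wells of different plates share barcodes.

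The filter on detected genes acted on this row as well. In replicate 3, 16 of 48 row D wells were kept (33.3%), against 321 of 336 wells in the other rows (95.5%). In replicate 2, 74 of 96 row D wells were kept (77.1%), against 587 of 672 elsewhere (87.4%). The ratio of row D given above is therefore that of the wells whose cell RNA was still high enough to pass. With the wells under the filter that held at least 2000 mouse UMIs taken in, the log2 ratio difference of row D was 0.36 ± 0.19 (exact permutation adjusted p = 0.0039), again positive on 12 of 12 plates. Of the other rows of the Q7 plates, row F passed the threshold for ERCC UMIs among kept wells, by 0.081 ± 0.090 on the log2 scale (exact permutation adjusted p = 0.041), and the others did not. In the wider set of wells rows A, E and F passed it, by 0.041, 0.078 and 0.096 (exact permutation adjusted p = 0.037, 0.0052 and 0.0052). Each row was set against all other wells of its plate, row D included, which lowers the level that the other rows are compared with. How much of these small differences comes from row D was not tested. Outer wells against inner wells differed by -0.021 ± 0.10 on the log2 scale over 16 plates (permutation test by sign flips, p = 0.446), lower outside on 9 of 16, and without row D by -0.040 ± 0.088 (p = 0.072 in the same permutation test), lower on 11 of 16.

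Single wells stood apart in both directions. Well H10 of control plate 3 in replicate 2 held 63489 ERCC UMIs from 49 transcripts, with 160472 mouse UMIs and thus 2.53 mouse UMIs per ERCC UMI. Well H10 of auxin plate 4 in the same replicate held 28441 ERCC UMIs from 37 transcripts. These were the only kept wells over 3 times their plate median, and they are called wells of high ERCC. Well C06 of auxin plate 1 in replicate 2 held only 80 ERCC UMIs beside 27035 mouse UMIs, a ratio of 337.9. Fewer than 20 ERCC UMIs were found in 7 wells, 6 of them in row H of auxin plate 3 of replicate 1, and none of the 7 passed the filter on genes.

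Without row D and the wells of high ERCC, the CV of ERCC UMIs was 21.7%, 15.9% and 15.3% in replicates 1, 2 and 3, with plates from 9.63% to 25.7%. The input itself was not measured, so unequal pipetting and later steps cannot be told apart in this spread. Mouse UMIs of the same wells had CVs of 36.2%, 39.8% and 36.5%, higher than ERCC UMIs on 16 of 16 plates. The difference was 19.8 ± 4.8 percentage points (SD, n = 3 replicates, exact two-sided sign-flip permutation p = 0.25, the smallest that 3 replicates allow). Over all kept wells it was 10.1 ± 9.3 points and higher on 14 of 16 plates (exact permutation p = 0.5).

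Division by ERCC UMIs narrowed the spread of mouse UMIs in replicate 1 and not in replicate 2. In the same wells, leaving out those below 200 ERCC UMIs, mouse UMIs per ERCC UMI had CVs of 32.9%, 41.5% and 37.1%. In replicate 1 the ratio was narrower than mouse UMIs on 4 of 4 plates, and in replicate 2 it was wider on 6 of 8. The Spearman correlation between ERCC and mouse UMIs within a plate described this difference, with medians of 0.404 in replicate 1, -0.086 in replicate 2 and 0.287 in replicate 3, and a range from -0.321 to 0.511 over 16 plates. The 2 counts share a library and its depth. Content itself followed mouse UMIs closely, with within-plate correlations of 0.636 to 0.950, since mouse UMIs are its numerator.

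**Figure D3:**
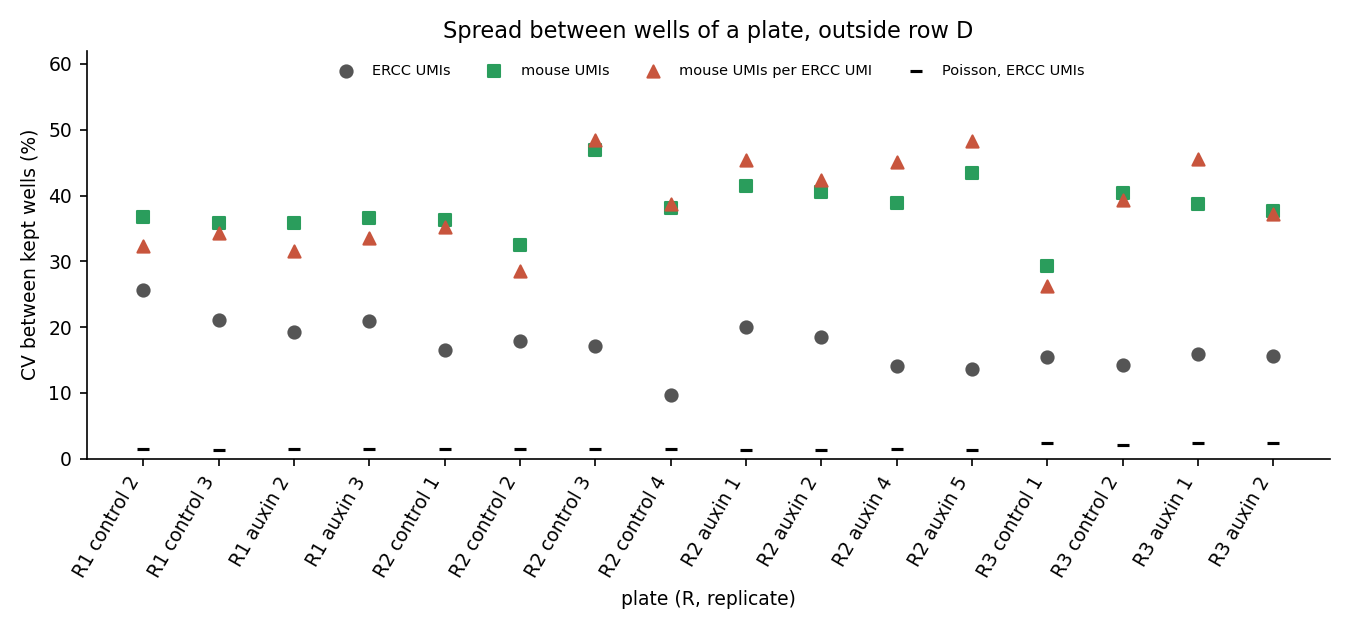
Coefficient of variation between kept wells (%) for ERCC UMIs, mouse UMIs and mouse UMIs per ERCC UMI on each of the 16 plates, with the Poisson value for ERCC UMIs, outside row D and without wells of high ERCC, and for the ratio also without wells below 200 ERCC UMIs. ERCC UMIs lie between 9.63% and 25.7% on these plates, below both mouse measures on every plate and above the Poisson values.

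The most abundant transcripts shared much of their spread. Within a plate, ERCC-00074 had a median CV of 20.6% over 16 plates, where Poisson counting gives 3.10%. Divided by the other ERCC UMIs of the same well its CV was 12.8%, lower on 16 of 16 plates. ERCC-00002 went from 20.5% to 14.9% and ERCC-00130 from 20.9% to 13.8%, each on 16 of 16 plates. ERCC-00003, the least abundant of the 10, changed from 47.8% to 44.9%, lower on 12 of 16 plates. The part of the spread that all transcripts of a well share was thus visible for the abundant transcripts and small beside the rest for the rarer ones.

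Wells with almost no cell RNA gave a further view of the input. Of the 201 wells at or below the filter, 127 had fewer than 2000 mouse UMIs, and the others included 44 row D wells of the Q7 plates. Outside row D there were 113 such wells, of which 6 held fewer than 20 ERCC UMIs. On the 11 plates with at least 3 such wells of 20 or more ERCC UMIs, their median of ERCC UMIs was 0.718 to 1.24 times that of the kept wells, and higher on 9 of 11. The mean log2 difference was 0.077 ± 0.28 (SD, n = 11 plates, permutation test by sign flips, p = 0.383). With the wells under 20 ERCC UMIs taken in, the ratio was higher on 8 of 11 plates and reached down to 0.010 on auxin plate 3 of replicate 1, where 5 of 11 such wells were under 20, and the mean log2 difference was -0.53 ± 2.03 (permutation test by sign flips, p = 0.773).

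mRNA content was then compared between auxin and control. In replicate 1 the median well had 21.0 mouse UMIs per ERCC UMI in control (168 wells) and 24.7 after auxin (169 wells). In replicate 2 the medians were 33.8 (371 wells) and 36.4 (290 wells). In replicate 3 they were 41.7 (85 wells) and 45.5 (84 wells). Auxin was higher in 3 of 3 replicates, by 1.18, 1.08 and 1.09 times, while the levels of the conditions overlapped across replicates. The mean log2 difference was 0.16 ± 0.071 (SD, n = 3, exact two-sided sign-flip permutation p = 0.25, the smallest possible). Taken as unpaired groups the exact permutation p was 0.6. With 3 replicates this permutation test cannot pass a threshold of 0.05 at any value. Without the filter on detected genes the difference was 0.044, with -0.18 in replicate 2 (exact permutation p = 0.75).

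**Figure D4:**
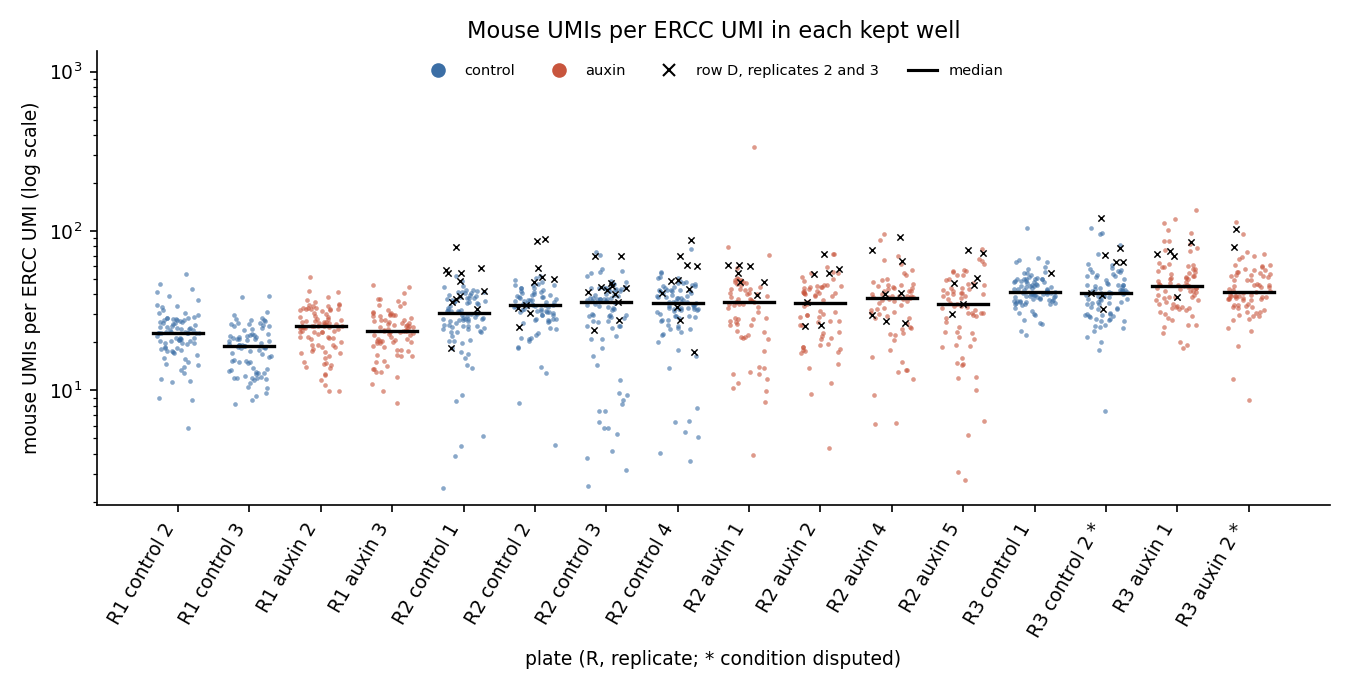
Mouse UMIs per ERCC UMI in each kept well (log scale) on the 16 plates, in the colours and signs used for ERCC UMIs by plate. Plate medians run from 18.9 to 25.2 in replicate 1, 30.4 to 37.9 in replicate 2 and 40.6 to 45.5 in replicate 3, and the wells of auxin and control plates overlap widely.

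The plates showed how the difference compares with that between libraries of 1 condition. In replicate 1 the plate medians were 23.0 and 18.9 in control and 25.2 and 23.6 after auxin. Paired within barcode set, the log2 difference was 0.034 for set Q6 and 0.41 for set Q8, so most of it came from the Q8 pair. That control plate had the highest median of ERCC UMIs of the series, 6426. In replicate 2 the 4 control plates had medians of 30.4, 34.3, 35.9 and 35.4 and the 4 auxin plates 36.1, 35.5, 37.9 and 34.9. The auxin plate was higher in 13 of 16 pairs, and the mean absolute log2 difference was 0.099 between conditions and 0.097 between plates of the same condition. Without row D and wells of high ERCC it was higher in 14 of 16, with 0.107 between and 0.098 within conditions. In replicate 3 the undisputed plates had 41.7 in control and 45.5 after auxin, and the disputed plates 40.6 where the annotation says control and 41.5 where it says auxin. With the disputed plates placed by the source values, the log2 difference of replicate 3 was 0.016 in place of 0.13. The replicates differed more from each other than the conditions did, since the highest median of replicate 1 lay below the lowest of replicate 2 and that below the lowest of replicate 3.

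Numerator and denominator were also compared on their own. The medians of mouse UMIs per well, control against auxin, were 104442 against 113617 in replicate 1, 143842 against 187088 in replicate 2 and 72317 against 75376.5 in replicate 3. They were higher after auxin in 3 of 3 replicates, with a mean log2 difference of 0.19 ± 0.17 (exact permutation p = 0.25). The mean was 0.091 without replicate 2 and 0.094 without the filter on detected genes, and with the disputed plates as annotated replicate 3 had -0.0089. The medians of ERCC UMIs were 5033 against 4753, 4551 against 5511.5 and 1654 against 1711.5. Their mean log2 difference was 0.081 ± 0.18 (exact permutation p = 0.75), and its sign was negative in replicate 1. In replicate 2 mouse UMIs were 1.30 times and ERCC UMIs 1.21 times as high after auxin, and the auxin plates there had fewer kept wells, 71 to 74 against 88 to 95.

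Each ERCC transcript was also tested against the mouse genes. The UMIs of kept wells were added up for each condition of each replicate, and 17572 features were fitted in 1 table with edgeR's quasi-likelihood test, scaled by TMM (trimmed mean of M values) on mouse genes. Of the 58 ERCC transcripts tested 0 passed an adjusted p of 0.05 (0 at an unadjusted p under 0.05), and 0% of all features were called. DESeq2 also called 0 of 58, with 1 at an unadjusted p under 0.05. With a replicate block edgeR called 0 of 58 (9 at an unadjusted p under 0.05) beside 0.0171% of all features. The median log2 fold change of the 58 was -0.22, with 50 of them negative, against -0.00094 for the mouse genes tested. Transcripts of 1 mixture share each well's input, so they are not independent of each other.

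ERCC-00074 had log2 differences from control of -0.37, -0.15 and 0.039 per mouse UMI in replicates 1, 2 and 3, and ERCC-00002 had -0.17, -0.049 and -0.31. ERCC-00130 had -0.15, -0.097 and -0.28. Of the 10 most abundant transcripts, fold changes lay between -0.31 and -0.13 on the log2 scale (edgeR, lowest adjusted p = 0.999999, and 0.694 with the replicate block). Among the 35 with a mean of at least 1 UMI, 18 were lower after auxin in all 3 replicates.

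With the summed ERCC UMIs as library size, most mouse genes had a higher value after auxin than in control. The median log2 fold change of the 17514 genes tested was 0.17, and the share of genes higher after auxin was 73.7%, 66.3% and 60.6% in replicates 1, 2 and 3. Of these genes 0 passed the threshold in edgeR (10 at an unadjusted p under 0.05, 0% of all features called), and DESeq2 called 1. With the replicate as a block edgeR called 1 gene, 0.00569% of features (2475 genes at an unadjusted p under 0.05), and DESeq2 called 387 higher and 22 lower, 2.33% of features. The same block with TMM scaling gave 15 higher and 39 lower in DESeq2, a scaling in which the median of all genes is 0.0032 in place of 0.19. These calls use the same ERCC totals as the content measure, and each is a ratio to only 6 sums.

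The gene called by edgeR with the replicate block was Dkk1 (ENSMUSG00000024868, mm10 chromosome 19 from 30545863 to 30549665, minus strand), a secreted inhibitor of Wnt signalling. It had 0.268, 0.0043 and 0.391 UMIs per 1000 ERCC UMIs in control and 1.39, 0.029 and 2.58 after auxin in replicates 1, 2 and 3, higher in 3 of 3. Its log2 fold change was 2.56 (standard error 0.21, edgeR with ERCC scaling and the replicate block, adjusted p = 0.0117), and 2.35 with TMM scaling (adjusted p = 0.0212). In edgeR with ERCC scaling and the block it was not past the threshold without replicate 3 (log2 fold change 2.47, adjusted p = 0.100). The same held with the disputed plates placed by the source values (1.50, edgeR adjusted p = 0.702). With these plates as annotated it passed (2.29, edgeR adjusted p = 0.029).

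The relation of content to the cell cycle was taken next. Phases were assigned per well with cyclone, which scores pairs of marker genes, and gave 90, 86 and 35 G1 wells in replicates 1, 2 and 3, with 98, 218 and 113 S wells and 149, 357 and 189 G2/M wells. The S list of 43 genes and the G2/M list of 54 genes were used to check these names. The G2/M list held a median of 0.717%, 0.884% and 0.565% of mouse UMIs in G1 wells of replicates 1, 2 and 3 and 1.90%, 1.71% and 1.53% in G2/M wells. The S list was highest in S wells in 3 of 3 replicates, at 0.766%, 0.890% and 0.876%. Cyclone and the lists draw on the same counts, so this is a check of the names and not a separate result.

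Content was higher in S and G2/M wells than in G1 wells. Within plates, G2/M wells had 1.50, 1.66 and 1.29 times the mouse UMIs per ERCC UMI of G1 wells in replicates 1, 2 and 3, a mean log2 difference of 0.56 ± 0.18 (SD, n = 3, exact two-sided sign-flip permutation p = 0.25, the smallest possible). The difference was positive on 14 of 14 undisputed plates, each of which had at least 5 wells of every phase. S wells had 1.42, 1.63 and 1.04 times the content of G1 wells, 0.42 ± 0.33 on the log2 scale (exact permutation p = 0.25), also positive on 14 of 14. With the disputed plates included the log2 difference of S against G1 in replicate 3 was 0.24 in place of 0.052, and the mean over replicates 0.48 for S and 0.59 for G2/M. G2/M against S gave 0.14 ± 0.15, positive on 9 of 14 plates (exact permutation p = 0.25). Replicate 3 rested on 6 control and 5 auxin G1 wells. Control plates 1, 2, 3 and 4 of replicate 2 also held only 6, 7, 6 and 5 G1 wells.

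The denominator differed by less between phases. ERCC UMIs of G2/M wells differed from G1 wells by 0.025 ± 0.075 on the log2 scale (exact permutation p = 0.75), positive on 6 of 14 plates, and those of S wells by 0.056 ± 0.074 (exact permutation p = 0.5). Mouse UMIs differed by 0.80 ± 0.34 for G2/M against G1 (exact permutation p = 0.25), higher on 14 of 14 plates. Phase calls draw on the mouse genes of the well, and with each well thinned to 20000 UMIs before the call, which left 1295 wells, the content difference of G2/M against G1 was 0.49.

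**Figure D5:**
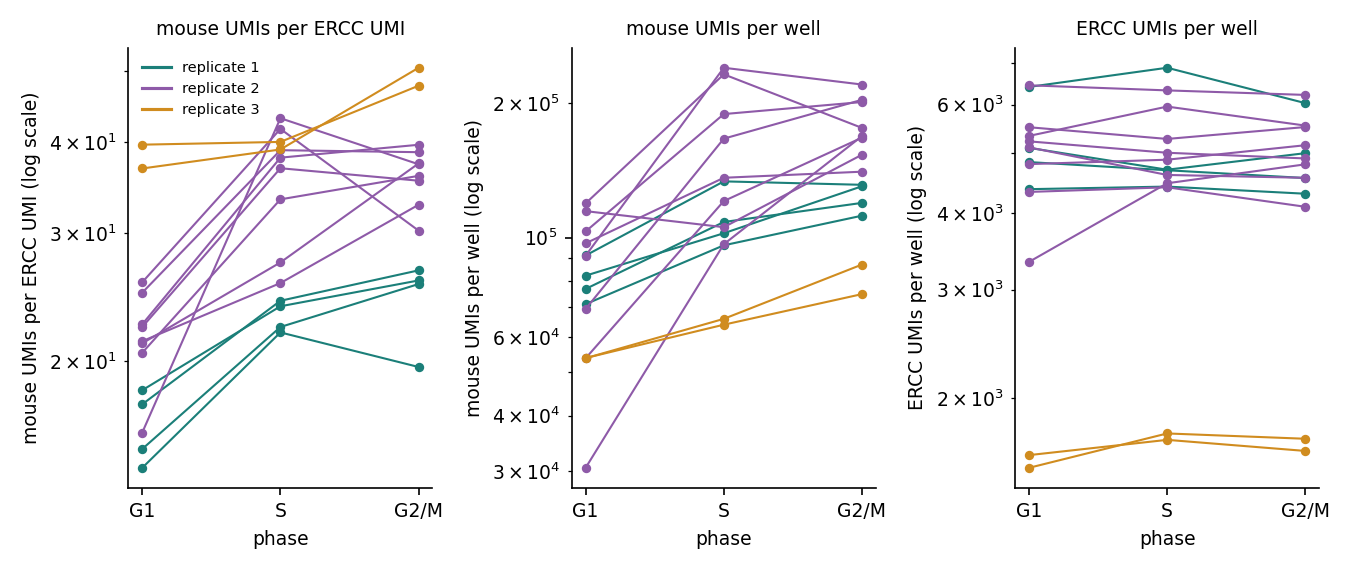
Median mouse UMIs per ERCC UMI, mouse UMIs and ERCC UMIs (log scales) of kept wells in G1, S and G2/M, with 1 line for each of the 14 undisputed plates, coloured by replicate. The first 2 measures are higher in G2/M than in G1 on all 14 plates, and ERCC UMIs are higher on 6 of them.

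Phases were then set beside condition. The share of G1 wells, control against auxin, was 36.9% against 16.6% in replicate 1, 6.47% against 21.4% in replicate 2 and 7.06% against 5.95% in replicate 3, with no common direction. Within G2/M wells the median content was 24.2 against 26.0, 35.9 against 37.6 and 47.8 against 50.5 in the same order. This is a log2 difference of 0.083 ± 0.018, higher in 3 of 3 (exact permutation p = 0.25). Within G1 wells the mean difference was -0.00073 ± 0.12 (exact permutation p = 1), and within S wells 0.13 ± 0.23 (exact permutation p = 0.75). In replicate 1 the pooled log2 difference of 0.24 stood beside -0.019, 0.025 and 0.10 within G1, S and G2/M wells. In replicate 2 that of 0.10 stood beside 0.12, 0.40 and 0.065, and in replicate 3 that of 0.13 beside -0.11, -0.034 and 0.082.

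Across wells of a plate, the share of mouse UMIs from each list was set against content, as a description over 64 to 84 wells a plate outside row D and without wells of high ERCC. The points share their library, and mouse UMIs enter both measures. For the G2/M list the Spearman correlation had a median of 0.340 over 16 plates and was positive on 16 of 16 (range 0.068 to 0.570). For the S list the median was 0.214, positive on 14 of 16, with 0.269, 0.237 and 0.014 in replicates 1, 2 and 3. The undisputed plates of replicate 3 gave -0.184 and -0.140, the only negative values. The housekeeping list, 19 rows for 18 gene symbols, had 0.249, positive on 15 of 16. Ribosomal protein genes had -0.125, mitochondrially encoded genes -0.084 and the ES cell markers -0.027. Set against ERCC UMIs alone, the G2/M list had a median of -0.081 and the S list -0.071.

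Single cycle genes were given per unit of spike-in, the G2/M list first. Top2a, the DNA topoisomerase needed to separate chromosomes (ENSMUSG00000020914, mm10 chromosome 11 from 98992943 to 99024189), had 2.89, 6.84 and 7.20 UMIs per 1000 ERCC UMIs in G1 wells of replicates 1, 2 and 3. In S wells it had 9.94, 28.0 and 24.8, and in G2/M wells 18.5, 42.0 and 53.6. Cenpf, a kinetochore protein (ENSMUSG00000026605, chromosome 1 from 189640606 to 189688086), had 2.68, 5.55 and 4.17 in G1 and 24.4, 35.7 and 43.5 in G2/M. In every replicate the levels of both differed more between G1 and G2/M than content did. Cdc20, an activator of the anaphase-promoting complex (ENSMUSG00000006398, chromosome 4 from 118432901 to 118437352), had 1.88, 9.90 and 7.33 in G1 and 13.1, 32.4 and 37.6 in G2/M. The centromeric histone gene Cenpa, the tubulin gene Tubb4b and the chromatin protein gene Hmgb2 were highest in G2/M in 3 of 3 replicates too.

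Among S list genes, Rrm2, a subunit of ribonucleotide reductase (ENSMUSG00000020649, chromosome 12 from 24708241 to 24714146), had 6.13, 13.8 and 16.8 UMIs per 1000 ERCC UMIs in G1 wells. In S wells it had 17.2, 26.0 and 30.6, and in G2/M wells 14.1, 22.3 and 26.6. It was highest in S in 3 of 3 replicates. The replicative helicase gene Mcm6 (ENSMUSG00000026355, chromosome 1 from 128331590 to 128359664) had 5.99, 7.62 and 13.6 in G1 wells, with 11.6, 12.5 and 16.6 in S wells and 8.63, 10.2 and 14.5 in G2/M wells. Hells, a chromatin remodeller, was highest in S in 3 of 3 as well. Nasp, a histone chaperone, and the helicase genes Mcm2 and Mcm5 were highest in S in replicates 1 and 2 and in G2/M in replicate 3. These genes are in the lists or near the pairs that phases were called with, so their order is a description.

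Between auxin and control, 0 of 43 S list genes and 0 of 54 G2/M list genes passed the threshold in edgeR with ERCC scaling, with or without the replicate block. In that scaling without the block 35 of 43 S list genes and 52 of 54 G2/M list genes had a log2 fold change above 0, with medians of 0.14 and 0.30 against 0.17 for all genes. The 18 housekeeping genes had a median of 0.15 with 0 called, and the 9 ES cell markers tested 0.096 with 0 called. With the replicate block the ES cell markers had a median of -0.070, with 4 of 9 above 0, and the other lists stayed above 0. DESeq2 with ERCC scaling and the block called 1 of 43 S list, 5 of 54 G2/M list, 2 of 18 housekeeping and 0 of 9 ES cell genes, all higher after auxin, beside 2.33% of all features. The same DESeq2 fit with TMM scaling called 0 genes of each of these lists, beside 15 higher and 39 lower among all genes. With TMM scaling, which moves all genes together, the medians of the S and G2/M lists without the block were -0.031 and 0.10 against -0.00094, so the S list lay below the median of all genes and the G2/M list above it in both scalings. Rrm2 had 10.7, 18.9 and 26.4 UMIs per 1000 ERCC UMIs in control and 15.1, 26.1 and 32.8 after auxin (log2 fold change 0.42, standard error 0.085, edgeR with ERCC scaling and the replicate block, adjusted p = 0.270). Cdc20 had 5.82, 23.7 and 25.3 in control and 9.26, 31.7 and 31.8 after auxin (0.47, standard error 0.094, edgeR with the same fit, adjusted p = 0.270). Both were higher after auxin in 3 of 3 replicates and did not pass this test, while DESeq2 with the same scaling and block gave an adjusted p = 0.0038 for each. With TMM scaling and the block neither passed in DESeq2, with log2 fold changes of 0.24 for Rrm2 (DESeq2 adjusted p = 0.395) and 0.29 for Cdc20 (DESeq2 adjusted p = 0.195). Cenpf was higher after auxin in replicates 1 and 3 and lower in replicate 2, with 29.1 in control and 24.6 after auxin there.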

How the data were processed

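Smart-SCRB counts were used from 3 replicates, each with control and auxin plates. The authors trimmed adapters, assigned reads to well barcodes and UMIs, and aligned them to mm10. The aligner and counting program are not given in the sources used here. The deposited counts are UMIs per gene and well, not normalized. The deposited percent of ERCC counts per well was within 1e-04 points of the value recomputed from the counts in all 1536 wells. The deposited saturation per plate is a fraction, 0.283 to 0.579 here, at 24144048 to 63465035 reads per plate.

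The study's filter of over 2600 detected genes was applied to wells. Conditions came from the deposited plate annotation. The study describes biological replicates from repeats of the whole procedure, and p-values of tests over replicates measure the spread between these 3 samples. Those for rows, outer wells and wells with almost no cell RNA are over plates. They measure the spread between plates, which share replicates and barcode sets. Content, ERCC UMIs and mouse UMIs were compared as medians per replicate by exact two-sided sign-flip permutation tests over 3 replicates. Phases came from cyclone in scran 1.30.0 (667 of 667 markers found). Differential tests used edgeR 4.0.16 with Benjamini-Hochberg adjustment, on 6 sums (UMIs of kept wells added per replicate and condition). ERCC scaling used the summed ERCC UMIs as library size. DESeq2 1.42.0 was an alternative. On simulated sums with 200 genes changed 4-fold, edgeR recovered 99.5% with and without the replicate block, with 8 false calls with it and 0 without. The simulation drew replicate effects of all genes from the same spread, so this share does not apply to genes that differ more between replicates. In the real fit without the block, Dkk1 had a log2 fold change of 2.60 with a standard error of 1.62 (edgeR, ERCC scaling). The replicate numbers pair the samples, since deviations from the condition means correlated by 0.937, 0.903 and 0.829 within replicates 1, 2 and 3. Other computations used Python 3.11.15, numpy 2.4.6, scipy 1.17.1 and pandas 2.3.3. Cells were sorted by FACS into wells, and no doublet caller was run.

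The named genes were the 10 most abundant ERCC transcripts, any called ERCC transcript, the 6 most abundant genes of each cycle list, up to 10 genes called with ERCC scaling that moved the same way in 3 replicates, and Rad21. Dkk1 was named from the replicate block because the fit without it called 0. The members and lists were chosen with earlier results of these data known. Row D, the wells of high ERCC, the limit of 2000 mouse UMIs and the range for rare transcripts were chosen after seeing the data. The depth of kept wells was 80 to 63489 ERCC UMIs. Transgene rows were left out of tests.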

Additional observations from a re-analysis of the deposited data

Results flagged for a closer look

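Among 24 sets of 4 plates tested for a plate far from the rest, in 1 replicate and condition at a time, 6 held one. The limit used is one that chance passes in about 1 in 20 sets of independent normal values, and these sets share plates and wells. In replicate 2, auxin plate 4 stood apart with a CV of ERCC UMIs of 64.9%, and control plate 3 with 131.4%. Each holds 1 well of high ERCC, and without it and row D the values were 14.0% and 17.2%. Auxin plate 1 stood apart with a CV of mouse UMIs per ERCC UMI of 99.0%, or 107.3% without row D and wells of high ERCC. Without its wells below 200 ERCC UMIs the latter was 45.3%. Auxin plate 5 had a CV of mouse UMIs of 53.3%, and control plate 1 a median of 26 detected ERCC transcripts per well where the other control plates had 25.

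Wells outside the comparisons also carried spike-in. The 107 wells with fewer than 2000 mouse UMIs, at least 20 ERCC UMIs and a place outside row D had a median of 5743 ERCC UMIs.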

How the results depend on the processing

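Content after auxin kept its direction under all 17 alternatives, with mean log2 differences of 0.044 to 0.18, and mouse UMIs did under all 15. The difference in ERCC UMIs turned to -0.017 without replicate 2, with a range of -0.017 to 0.16 over the left-out replicates, and stayed positive under the other alternatives. Content of G2/M and of S wells against G1 kept its direction under all 10 alternatives each, at 0.47 to 0.66 and 0.28 to 0.60. For content, mouse UMIs and these phase differences, leaving out 1 replicate could not turn the sign, since all 3 replicate values share it. Dropping the pairing by replicate left the means of content and of UMIs the same by construction. In the permutation tests over 3 replicates the side of the threshold could not change, since these tests cannot reach it, so it says nothing about stability. The mean CV of ERCC UMIs over kept wells was 32.0% and fell to 17.6% without row D and wells of high ERCC. The count of called ERCC transcripts was 0 under all 24 alternatives. Genes called with ERCC scaling numbered 0, and the replicate block gave 1, also without row D, and 2 without wells of high ERCC or with the disputed plates as annotated (the alternatives on row D and high ERCC were chosen after seeing the data). With the block it was 9 without replicate 1, 57 without replicate 2 and 2 without replicate 3, and with no block 0 each time. DESeq2 gave 1, or 409 with the block. The block with TMM scaling or with DESeq2 size factors gave 3 each, and with total mouse UMIs 2. The cause of these changes was not tested. The depth of replicate 3, and its 11 G1 wells on the undisputed plates, limit its phase values.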
